A study of Mus musculus with 2 samples.

Results

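The genes described here encode the machinery that docks, primes and fuses synaptic vesicles. They were chosen by gene symbol as the numbered synaptotagmins, syntaxins, syntaxin-binding proteins, VAMPs, complexins, RIMs, Unc13 proteins, synapsins and SV2 proteins, which came to 64 of the 32285 genes counted. Single-nucleus RNA sequencing was carried out on the thalamus of the operated hemisphere of female C57BL/6J mice, operated at 3 months of age and sampled 21 days later. The sham library held nuclei pooled from 4 mice that received a burr hole with the cortex left in place. The injury library held nuclei pooled from 4 mice after cortical ablation injury (CAI), in which sensory and motor cortex was removed by aspiration through such a hole. Each group was thus 1 library, no difference between sham and CAI had a replicate check, and no test between them was possible. The intervals given are 95% intervals that cover counting error only.

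At a presynaptic terminal, a VAMP on the vesicle pairs with a syntaxin and SNAP-25 on the plasma membrane to form the SNARE complex that drives fusion. The Unc13 proteins prepare syntaxin for that pairing, RIM proteins hold vesicles near calcium channels, complexins bind the assembled complex, and synaptotagmins sense the calcium that triggers release. Synapsins tether the reserve of vesicles, SV2 proteins are vesicle glycoproteins, and most of these families have several paralogs whose use differs between kinds of neurons.

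The sham and injury libraries kept 16373 and 21777 nuclei, with medians of 7190 and 6810 UMIs (unique molecular identifiers, each standing for 1 counted transcript). The members and a list of other release genes were left out of the genes used for clustering. The neurons compared formed 18 glutamatergic and 2 GABAergic clusters, which held 11671 sham and 12148 injury glutamatergic nuclei and 1999 sham and 3301 injury GABAergic nuclei. Slc17a6, the vesicular glutamate transporter of thalamic neurons, stood at 165 and 151 CPM (UMIs of a gene scaled to the same total for each class) in sham and injury in the glutamatergic class and at 13.9 and 15.9 CPM in the GABAergic class, and Gad1, which makes GABA, at 2.11 and 3.26 CPM against 183 and 175 CPM. Clusters are called by leading genes, and 3 of them were checked for markers of a known type against the median of the other neuron clusters. The remaining clusters were not checked in this way. The Chat/Chrna3 cluster was medial habenula-like (9 of 9 markers higher), the Six3/Lancl3 cluster reticular-like (6 of 6) and the Adgrf5/Zfp385c cluster thalamic relay-like (8 of 9). Left out of both classes were 3 neuron clusters with under 50 nuclei in a library (2 sham and 933 injury nuclei), 1 with a marker of another cell class and none of its own among its leading genes (195 and 194) and 1 of low depth with no such marker (246 and 328). Clusters in which over 50% of nuclei were called doublets (901 and 1706 nuclei, neuronal or glial) were left out as well. The libraries shared 101 barcodes. Oligodendrocyte nuclei, which should lack it, held Slc17a6 at 18.7 and 17.3 CPM, close to the GABAergic level.

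Of the 64 members, 59 had at least 50 UMIs in the neurons compared. They included all members of the Stxbp, Rims, Unc13, Sv2 and Syn families, 16 of 17 synaptotagmins, 14 of 15 syntaxins, 5 of 7 VAMPs and 3 of 4 complexins. The 5 others were Vamp5, Vamp8, Syt8, Stx11 and Cplx4. Cplx4, a complexin of the retina, was counted 0 times in glutamatergic neurons of the sham library and 2 times in those of the injury library (upper 95% limit 0.035 CPM in sham). UMIs were tagged near the 3′ end and are not scaled for gene length. Each gene is therefore compared with itself across cell types, and a paralog's share of its group is compared between clusters. Another counted gene overlaps 22 of the members, among them Stx4a and Vamp3. Whether counting used strand is not given in the sources used here, so that reads of such genes cannot be fully told apart.

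Transmitter class divided a small part of the machinery. A member was called when its CPM differed at least 2-fold between glutamatergic and GABAergic neurons in both libraries, and 57 members had the 50 UMIs needed in each library. In the glutamatergic direction 7 were called, which is 12.3% of those tested against 5.47% of the 17833 genes tested. In the GABAergic direction 2 were called, which is 3.51% against 4.79% of all genes. The 7 were Syt9, Stxbp6, Syt15, Syt7, Sv2b, Rims3 and Unc13b, and the 2 were Syt2 and Sv2c. Calls in either direction did not hold for all pairs of clusters. The GABAergic Gata3/Cdh23 cluster had Rims3 at 45.0 and 45.6 CPM in sham and injury, above the medial habenula-like cluster at 21.7 and 26.4 CPM. Its Syt9, at 77.0 and 71.8 CPM, lay above the Sycp2l/Ccdc192 cluster at 44.65 and 37.97 CPM. Its Sv2b, at 70.2 and 61.4 CPM, lay above the Oxt/Avp cluster at 34.7 and 47.3 CPM. The median log2 ratio of glutamatergic over GABAergic CPM was -0.08 in sham and -0.09 in injury over the members and -0.16 and -0.19 over all genes tested.

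Syt9, a calcium sensor for fast release, stood at 262 CPM (259 to 265) in sham and 312 CPM (309 to 316) in injury glutamatergic neurons. In GABAergic neurons it stood at 67.9 CPM (63.7 to 72.3) and 63.3 CPM (60.1 to 66.6), and in oligodendrocytes at 31.7 CPM (23.9 to 41.1) and 52 CPM (45.4 to 59.2). The glutamatergic level was 3.86-fold and 4.93-fold the GABAergic level in sham and injury. Syt7, the high-affinity sensor linked to asynchronous release, stood at 459 and 397 CPM in glutamatergic and at 135 and 122 CPM in GABAergic neurons, which is 3.39-fold and 3.27-fold. Sv2b stood at 163 and 183 CPM against 54.7 and 47.2 CPM.

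Stxbp6, also called amisyn, which binds SNARE proteins, stood at 312 and 283 CPM in glutamatergic and at 81.7 and 57.4 CPM in GABAergic neurons. Unc13b, a priming factor, stood at 167 and 168 CPM against 55.6 and 75.4 CPM, so that its class ratio was smaller in the injury library. Rims3, a short RIM protein, stood at 86.2 and 85.4 CPM against 37.7 and 36.7 CPM. Syt15 had only 204 and 328 UMIs in glutamatergic neurons and 8 and 14 in GABAergic neurons, and its log2 ratio in sham was 1.79 (0.78 to 3.02).

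In the other direction, Syt2, a fast calcium sensor prominent in the hindbrain, stood at 46.4 and 47.6 CPM in GABAergic and at 16.4 and 18 CPM in glutamatergic neurons, which is 2.83-fold and 2.64-fold. Sv2c stood at 43.5 and 43.5 CPM in GABAergic and at 20.3 and 20.4 CPM in glutamatergic neurons, which is 2.15-fold and 2.13-fold. Syn3 lay just short of the limit, with 346 and 375 CPM in GABAergic and 177 and 203 CPM in glutamatergic neurons and log2 ratios of -0.97 and -0.88. Syt17 lay nearest to it in the glutamatergic direction, with log2 ratios of 0.86 and 1.06, of which the first fell short. With counts scaled by trimmed mean of M values (TMM), Syt17 was also called glutamatergic and Sv2c was no longer called. With log2 CPM averaged over the clusters of a class, each cluster counting the same, Stxbp6 and Syt15 were no longer called, at log2 ratios of 0.76 and 1.28 and of 0.10 and 0.48 in sham and injury, and Cplx2, Syt12, Syt6 and Unc13c were called GABAergic. With CPM itself averaged over clusters, an alternative chosen after seeing the data, Stxbp6 and Syt15 were called, at 1.75 and 2.17 and at 2.04 and 2.72, and Syt6, which is high in few clusters, was called glutamatergic. Syt6 was also called glutamatergic with nuclei thinned to 2000 UMIs, so that its direction depended on the average taken. Sv2c was not called with averaged CPM, at a clustering resolution of 1.0 or with thinned nuclei.

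**Figure D1:**
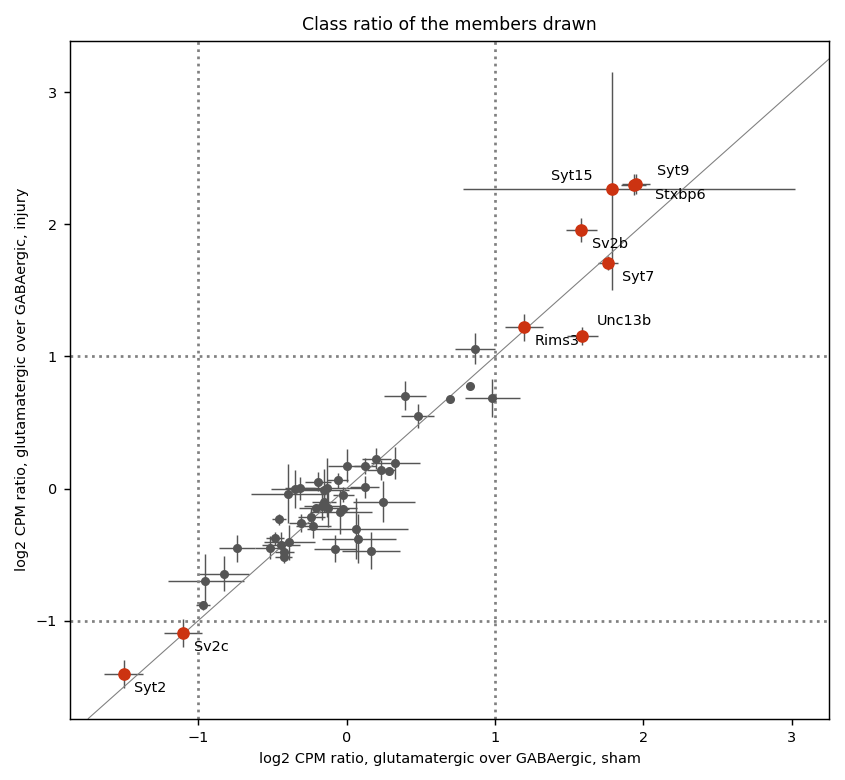
Log2 ratio of CPM in glutamatergic over GABAergic neurons for the tested members, in the sham library (x axis) and the injury library (y axis). Bars are 95% counting intervals, dotted lines mark 2-fold and the thin line equal ratios, and the 9 named red points are past 2-fold in both libraries, with Syt9 and Stxbp6 at the upper right and Syt2 at the lower left.

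Levels were then compared between single clusters, whose range includes any difference between the classes. For each of the 20 neuron clusters the geometric mean of both libraries was taken on CPM + 1, with 1 CPM as the floor. It differed at least 10-fold between the highest and the lowest cluster for 16 of the 59 members and under 2-fold for 12. The highest and lowest clusters named are those by this mean. The median range was 3.94-fold and the smallest, that of Unc13a, was 1.53-fold. The highest cluster was the same in both libraries for 38 of the 59 members. The Pearson correlation of the sham with the injury levels over the 20 clusters had a median of 0.91 and ran from 0.28 to 0.99, which is a description, since the libraries share the cluster boundaries.

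**Figure D2:**
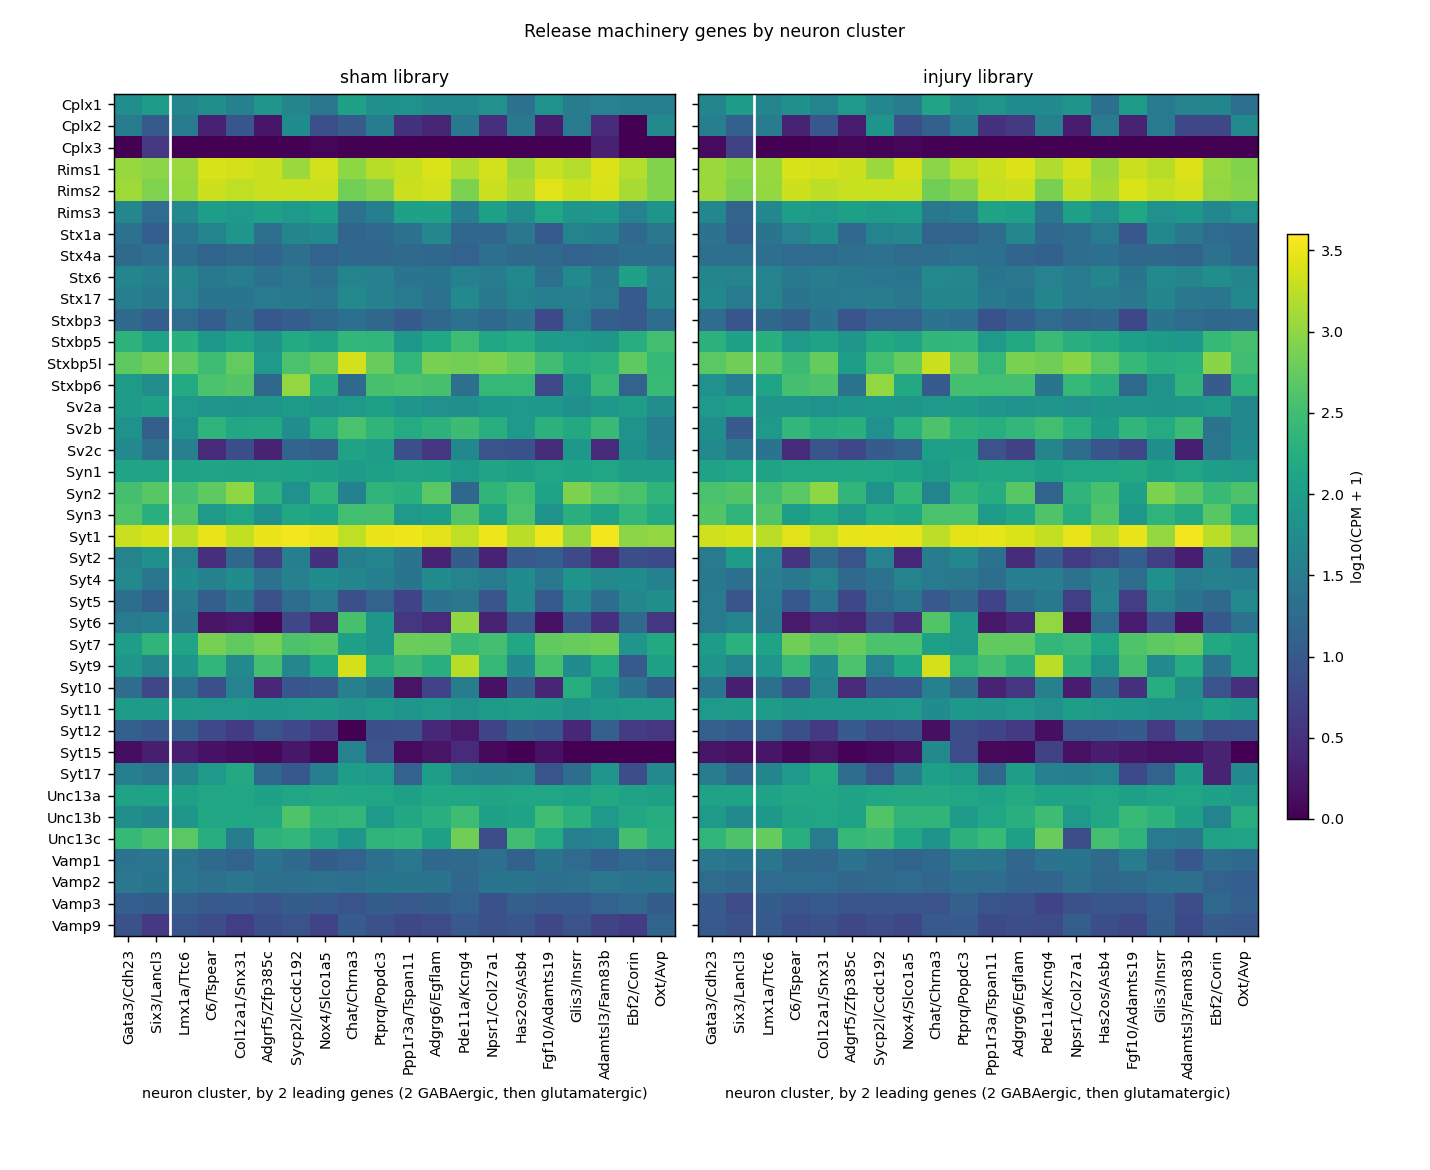
Level of named members, as log10 of CPM + 1, in each of the 20 neuron clusters of the sham library (left) and the injury library (right), with the 2 GABAergic clusters left of the white line. Syt1, Rims1 and Rims2 were high throughout, whereas Syt6, Syt9, Syt10, Stxbp6, Syn2 and Unc13c changed greatly from cluster to cluster in both libraries.

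The Chat/Chrna3 (medial habenula-like) and Pde11a/Kcng4 clusters stood apart in their calcium sensors. Syt9 stood at 2329 and 2315 CPM in sham and injury in the former and at 1607 and 1700 CPM in the latter, while the thalamic relay-like cluster had 333 and 368 CPM and the Sycp2l/Ccdc192 cluster 44.6 and 38 CPM. Syt1, the main fast sensor of forebrain neurons, held 43.5% and 42.7% of the summed Syt1, Syt2 and Syt9 UMIs in the medial habenula-like cluster and 53.1% and 52.3% in the Pde11a/Kcng4 cluster. In the other 18 clusters its share ran from 86.8% to 98.3%. Syt2 took its largest share in the reticular-like cluster, with 2.53% and 3.7%, and was also highest in level there, at 63.3 and 95.5 CPM. The other GABAergic cluster, Gata3/Cdh23, had Syt2 at 40.4 and 29.4 CPM, below the glutamatergic Ptprq/Popdc3 cluster at 41.1 and 47 CPM. The higher Syt2 level of the GABAergic class was thus not shared by all pairs of clusters.

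Syt6 had the widest range of all members. It stood at 991 and 1046 CPM in the Pde11a/Kcng4 cluster, 356 and 425 CPM in the medial habenula-like cluster and 79.1 and 97.8 CPM in the Ptprq/Popdc3 cluster. In the thalamic relay-like cluster it was at 0.188 and 1.33 CPM, so that its levels spanned orders of magnitude. Syt15 was likewise highest in the medial habenula-like cluster, at 40.0 and 49.7 CPM, and stood at 7.26 and 5.75 CPM in the Ptprq/Popdc3 cluster and at most at 4.0 CPM elsewhere.

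Syt10, which is known from growth factor release in olfactory neurons, was highest in the Glis3/Insrr cluster at 174 and 172 CPM, followed by 63.6 and 59.6 CPM in the Adamtsl3/Fam83b cluster. It was lowest in the Npsr1/Col27a1 cluster, at 0.488 and 0.905 CPM. Syt17 was highest in the Col12a1/Snx31 cluster at 149 and 157 CPM and lowest in the Ebf2/Corin cluster at 6.42 and 1.24 CPM. Syt7 was highest in the C6/Tspear cluster at 731 and 656 CPM and lowest by the mean of both libraries in the Ptprq/Popdc3 cluster at 76.2 and 84.1 CPM (Ebf2/Corin had 73.8 and 154 CPM), below both GABAergic clusters, which had 103 and 92.7 CPM (Gata3/Cdh23) and 225 and 198 CPM (reticular-like).

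Among SV2 proteins, Sv2a took its largest share of the clusters compared in the reticular-like cluster. Sv2a held 78% and 76.1% of the SV2 UMIs there and Sv2b 7.76% and 6.7%, while in the other GABAergic cluster, Gata3/Cdh23, the Sv2a share was 43.6% and 43%. Sv2b held 65.9% and 70.1% in the thalamic relay-like cluster and 76% and 79% in the Adamtsl3/Fam83b cluster. Its level was highest in the medial habenula-like cluster, at 367 and 395 CPM, and lowest in the reticular-like cluster, at 11.2 and 9.81 CPM. Sv2c stood at 117 and 106 CPM in the medial habenula-like and 101 and 112 CPM in the Ptprq/Popdc3 cluster, above both GABAergic clusters, against 1.69 and 1.0 CPM in the Adamtsl3/Fam83b cluster. Its higher level in the GABAergic class was thus not shared by all pairs of clusters.

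Synapsins varied as strongly. Syn2 stood at 984 and 985 CPM in the Col12a1/Snx31 cluster and 765 and 777 CPM in the Glis3/Insrr cluster, but at 15.3 and 13.6 CPM in the Pde11a/Kcng4 cluster and 36.7 and 40.5 CPM in the medial habenula-like cluster. Syn3 held 79.8% and 76.2% of synapsin UMIs in the Pde11a/Kcng4 cluster and 71.3% and 73.7% in the medial habenula-like cluster, against 10.8% and 12.2% in the Col12a1/Snx31 cluster. Syn1 ranged by only 1.56-fold in level.

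Among complexins, the share of Cplx2 varied widely over glutamatergic clusters, with values between the ends as well. Cplx2 held 57% and 61.4% of complexin UMIs in the Sycp2l/Ccdc192 cluster and 56% and 59.5% in the Has2os/Asb4 cluster. In the Oxt/Avp cluster it held 59.4% and 72.7%, on only 19 of 32 sham and 48 of 66 injury UMIs. Its share was 33.2% and 36.8% in the Ptprq/Popdc3 cluster and 17.7% and 17.1% in the Col12a1/Snx31 cluster. In the thalamic relay-like cluster its share was 0.877% and 0.992%, and in the C6/Tspear cluster 1.86% and 2.0%. By level, Cplx2 ran from 0.659 and 0.86 CPM in the thalamic relay-like cluster to 56.2 and 71.6 CPM in the Sycp2l/Ccdc192 cluster. Cplx3, best known from the retina, had 11 sham and 31 injury UMIs in GABAergic neurons and stood at 2.93 and 4.05 CPM in the reticular-like cluster.

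Among the priming factors Unc13a was nearly even across clusters and its paralogs were not. Unc13c was highest in the Pde11a/Kcng4 cluster at 648 and 581 CPM and in the Lmx1a/Ttc6 cluster at 480.1 and 554 CPM, where it held 71.5% and 73.6% of the group. It was lowest in the Npsr1/Col27a1 cluster at 6.1 and 6.34 CPM, with a share of 2.5% and 3.03%. In the GABAergic clusters the Unc13c share was 59.9% and 53.6% (Gata3/Cdh23) and 67.4% and 69.4% (reticular-like). Unc13b was highest in the Sycp2l/Ccdc192 cluster at 401 and 417 CPM.

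The same Sycp2l/Ccdc192 cluster had the highest Stxbp6, at 1023 and 1039 CPM, while the thalamic relay-like cluster had 14.7 and 23.5 CPM and the Fgf10/Adamts19 cluster 5.28 and 16.5 CPM. Stxbp5l, a tomosyn that holds SNARE proteins in a complex that does not fuse, stood at 2229 and 2070 CPM in the medial habenula-like cluster and at 83.5 and 105 CPM in the thalamic relay-like cluster.

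Rims1 held 34.5% and 35.5% of the Rims1, Rims2 and Rims3 UMIs in the Sycp2l/Ccdc192 cluster and 64.7% and 65.9% in the Pde11a/Kcng4 cluster. Stx1a, a plasma membrane syntaxin, stood at 74.5 and 61.6 CPM in the Col12a1/Snx31 cluster, against 10.9 and 11.7 CPM in the reticular-like cluster and 9.59 and 8.56 CPM in the Fgf10/Adamts19 cluster. Vamp1 and Vamp2, the synaptobrevins, ranged by 2.73-fold and 1.56-fold in level.

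**Figure D3:**
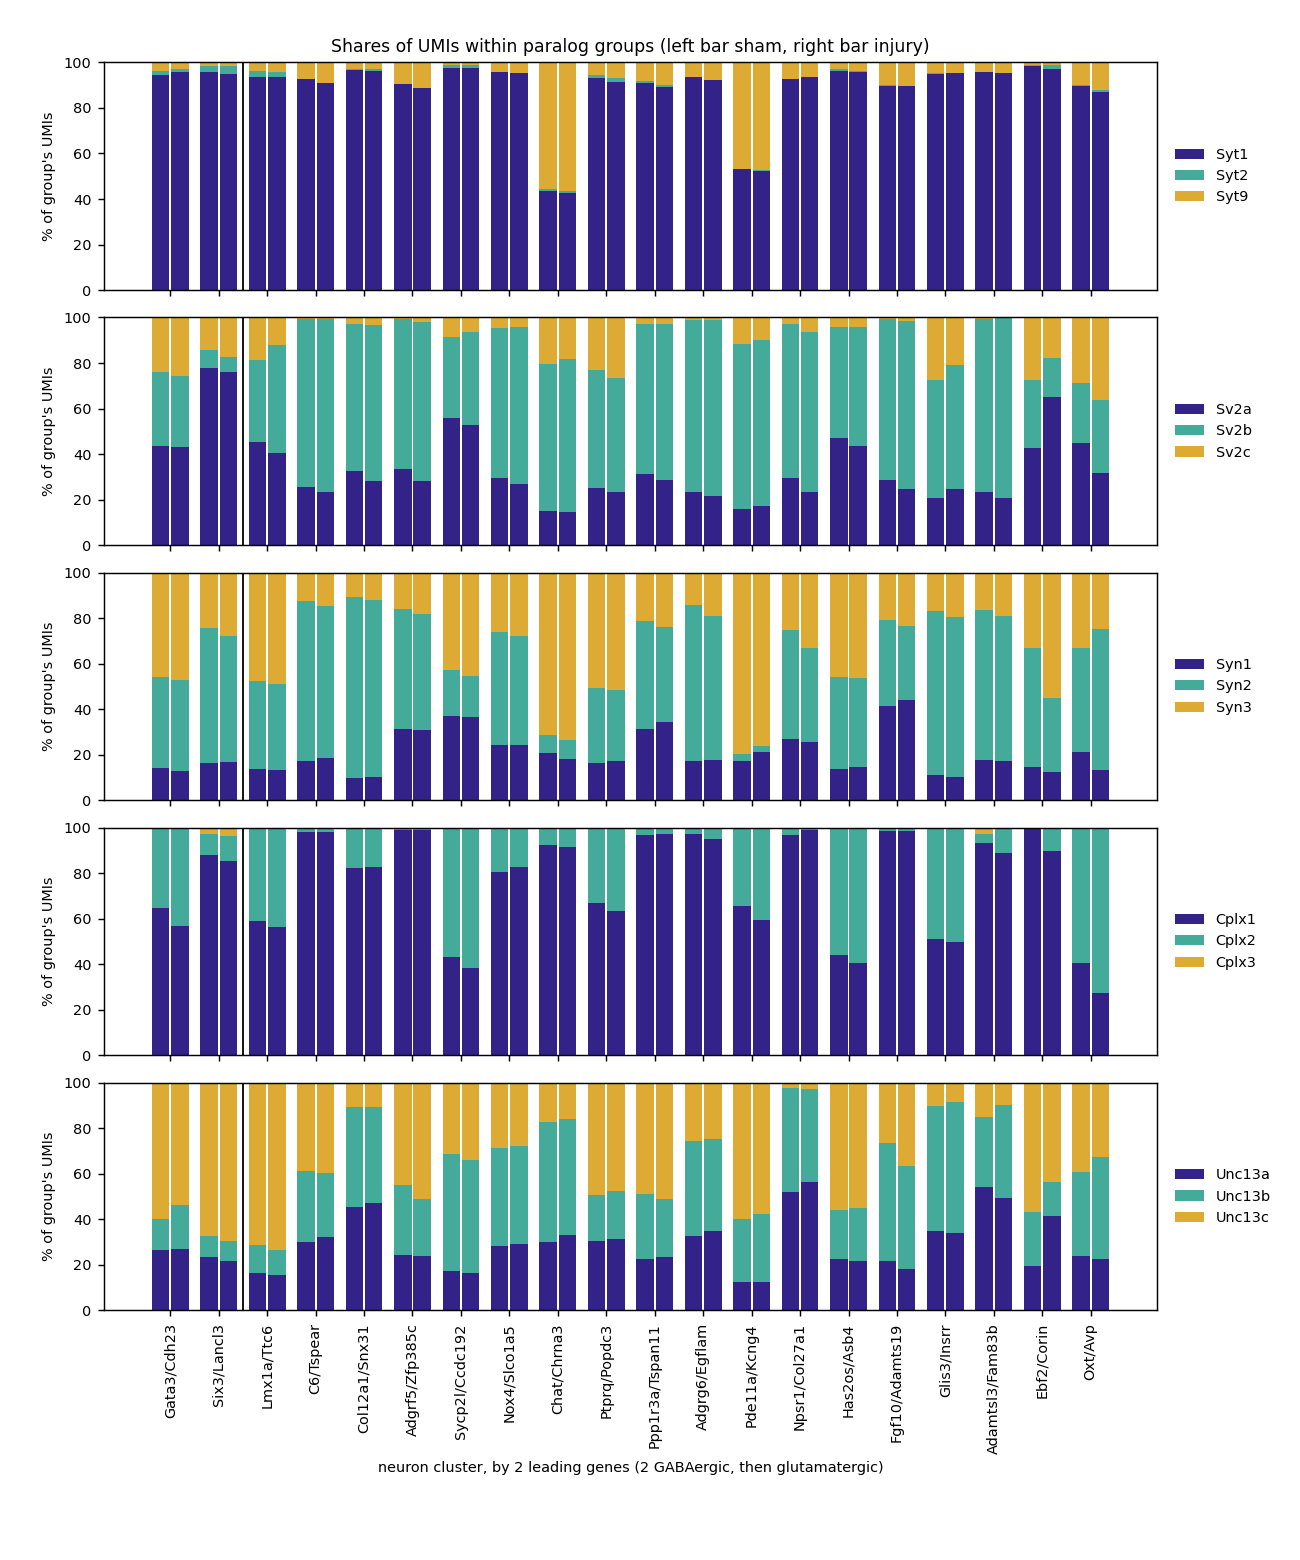
Share of UMIs within 5 paralog groups (percent of the group's UMIs, stacked) in each of the 20 neuron clusters, with the sham library as the left bar and the injury library as the right bar of each pair and the GABAergic clusters left of the line. Syt9 stood out in the Chat/Chrna3 and Pde11a/Kcng4 clusters, Sv2a in the Six3/Lancl3 cluster, Syn3 in the Pde11a/Kcng4 and Chat/Chrna3 clusters and Cplx2 in the Sycp2l/Ccdc192, Has2os/Asb4 and Oxt/Avp clusters.

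Some members were higher outside neurons. Among members with at least 50 UMIs in glia, the largest ratios of glia over neurons were those of Vamp5 at 118-fold, Stxbp3 at 12.9-fold, Stx4a at 2.99-fold, Stx6 at 2.57-fold and Syt11 at 2.26-fold. Over both libraries, Vamp5 stood at 22 CPM in oligodendrocytes against 0.164 CPM in neurons, and Stxbp3, a syntaxin-binding protein of general secretion, at 241 CPM against 14.3 CPM. Stx4a is a plasma membrane syntaxin of many tissues and Stx6 one of the trans-Golgi network. Syt11, which does not bind calcium, stood at 241 CPM in oligodendrocytes and 81.1 CPM in astrocytes, against 85.6 CPM in neurons. Stxbp6, called glutamatergic above, stood at 548 and 516 CPM in oligodendrocytes of sham and injury, whereas Syt1 was at 172 CPM there against 2500 CPM in neurons.

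The injury library was then compared with the sham library within each neuron class. A member was called when its log2 ratio of CPM was at least 0.25 in size with an interval apart from 0, among members with at least 50 UMIs. In sums over a class, a shift in its make-up and a change within its cells cannot be told apart, so ratios per cluster are given as well. In glutamatergic neurons 58 members were tested, of which 5 were called higher in injury (8.62%, against 8.92% of all genes) and 2 lower (3.45%, against 9.23% of all genes). In GABAergic neurons 56 were tested, of which 7 were called higher (12.5%, against 9.95% of all genes) and 6 lower (10.7%, against 7.9% of all genes). The members' median log2 ratio was 0.02 in glutamatergic and -0.00 in GABAergic neurons, and that of all genes was 0.01 in both.

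Syt4 and Vamp2 were called lower in both classes. Syt4, a synaptotagmin of dense-core vesicles with weak calcium binding, stood at 42 CPM (40.8 to 43.2) in sham and 28.9 CPM (27.9 to 29.9) in injury in glutamatergic neurons, a log2 ratio of -0.54 (-0.61 to -0.48). In GABAergic neurons it stood at 42 CPM (38.7 to 45.5) in sham and 25.6 CPM (23.6 to 27.7) in injury, and the log2 ratio was -0.72 (-0.88 to -0.55). Syt4 was lower in injury in 18 of the 18 clusters with 50 UMIs, with an interval below 0 in 13, and the cluster ratios ran from -0.79 to -0.18.

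Vamp2, the main VAMP of brain synapses, stood at 22.6 CPM (21.7 to 23.5) in sham and 16.7 CPM (16 to 17.5) in injury in glutamatergic neurons, a log2 ratio of -0.44 (-0.52 to -0.35). In GABAergic neurons it stood at 25.1 CPM (22.5 to 27.8) in sham and 16.9 CPM (15.2 to 18.6) in injury, and the log2 ratio was -0.57 (-0.78 to -0.36). Vamp2 too was lower in 18 of 18 clusters, with an interval below 0 in 10. Vamp1 stood at 17.8 and 19.3 CPM in glutamatergic and 23.2 and 25.5 CPM in GABAergic neurons, and its share of the Vamp1 and Vamp2 UMIs was 44.1% and 53.5% in sham and injury in the former and 48.1% and 60.2% in the latter. Clusters come from the same 2 libraries and do not replicate the comparison. The share of all genes that were lower in as many clusters is not given here.

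Gene length moved with these ratios. Vamp2 spans 3.9 kb, at chr11:69088490-69092384 on the + strand (GRCm38), and Syt4 spans 9.6 kb, which places both among the shorter members. Not all short members went this way. Syt5 spans 7.8 kb and Stx19 9.7 kb, with log2 ratios of -0.16 and -0.13 in glutamatergic neurons, and both were called higher in GABAergic neurons, at 0.48 and 0.33. Of all genes spanning under 5 kb, 26.3% were called lower and 6.92% higher in injury in glutamatergic neurons, with a median log2 ratio of -0.13. Of genes of 5 to 10 kb, 17.6% were called lower, with a median of -0.07, and of genes of 200 kb or more 0.559%, with a median of 0.07. In GABAergic neurons the corresponding medians were -0.09, -0.02 and 0.03. The part of gene length in the ratios of Vamp2 and Syt4 was not tested. Outside neurons, Vamp2 was called lower in astrocytes on 24 sham and 40 injury UMIs. Its level there was 52.9 and 27.9 CPM and its log2 ratio -0.92 (-1.69 to -0.13). In oligodendrocytes Vamp2 stood at 41.3 and 34.9 CPM, a log2 ratio of -0.24 (-0.66 to 0.18), and Syt4 had under 50 UMIs in both of these classes. The glial classes drew on different clusters in the libraries, with 1 astrocyte cluster of 0 sham and 91 injury nuclei and with oligodendrocyte clusters of 23 and 713 and of 276 and 20, so that a shift between clusters and a change within them cannot be told apart there.

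**Figure D4:**
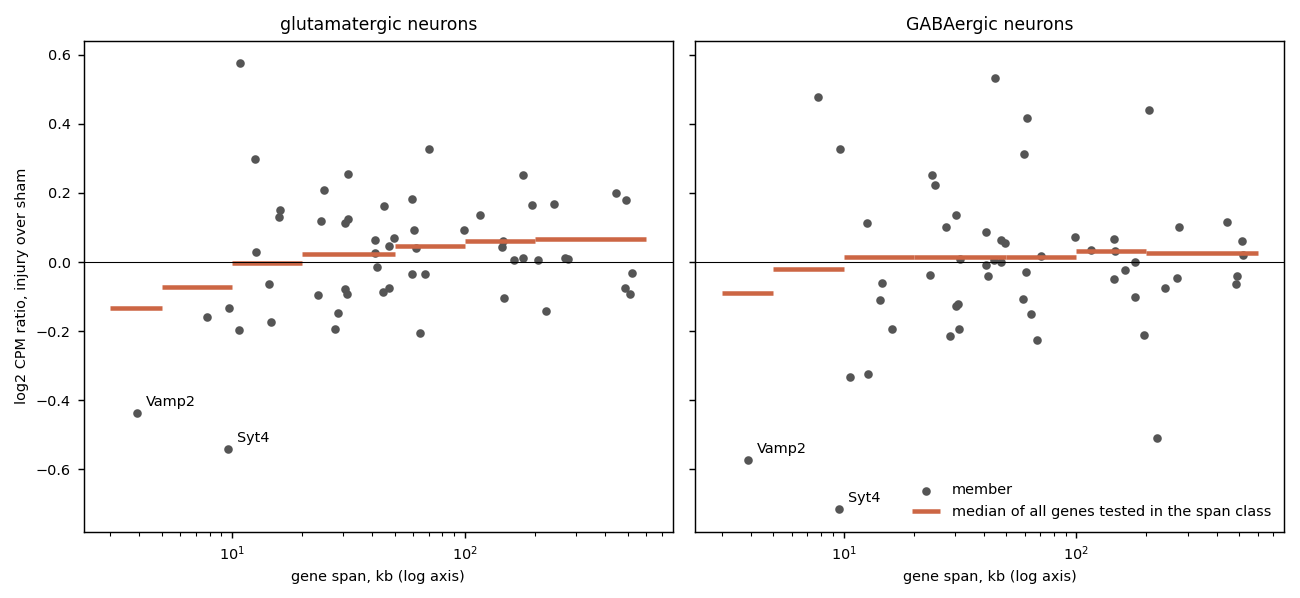
Log2 ratio of CPM in injury over sham for the tested members (points) against the span of its gene in kb on a log axis, in glutamatergic (left) and GABAergic (right) neurons. Orange lines are the medians of all genes tested in each span class, which were lowest for the shortest genes, and Vamp2 and Syt4 lie below the lines of their classes.

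Levels of glial marker genes in neuronal nuclei also moved with the groups. Of 10 oligodendrocyte markers, 9 were higher in injury in glutamatergic neurons and 8 in GABAergic neurons, with summed levels of 47.4 and 62.6 CPM in the former and 57.5 and 83.8 CPM in the latter, and no marker was at 0. Of 10 astrocyte markers 8 and 9 were higher, but their summed level was lower in injury in glutamatergic neurons, at 459.5 and 442.7 CPM, and higher in GABAergic neurons, at 138 and 151.9 CPM. Of 10 microglial markers 8 were higher in each class, with summed levels of 119.1 and 131.3 CPM and of 98 and 122.3 CPM, and 1 was at 0 in the injury library in GABAergic neurons. Whether this RNA came from glia was not tested, nor was its part in the members' ratios.

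The members called higher in glutamatergic neurons were Syt15 at 0.58 (0.32 to 0.84), Syt6 at 0.33 (0.27 to 0.38), Cplx2 at 0.30 (0.20 to 0.40), Syt12 at 0.26 (0.10 to 0.41) and Syt9 at 0.25 (0.23 to 0.28). Syt15 and Syt9 were highest in the medial habenula-like cluster and Syt6 second highest there, and that cluster's nuclei numbered 589 in sham and 933 in injury. Within it the log2 ratio of Syt9 was -0.01 (-0.05 to 0.03), that of Syt6 0.25 (0.15 to 0.36) and that of Syt15 0.31 (-0.01 to 0.64). Within the Pde11a/Kcng4 cluster that of Syt6 was 0.08 (-0.00 to 0.16) and that of Syt9 0.08 (0.02 to 0.14). Over clusters of both classes, Syt9 was higher in 11 of 19 with an interval above 0 in 6, among them C6/Tspear at 0.23 (0.17 to 0.29) and the thalamic relay-like cluster at 0.14 (0.08 to 0.21), and had an interval below 0 in 2. Syt6 was higher in 7 of 8, with an interval above 0 in 3 and below 0 in 0. With log2 ratios averaged over clusters, none of the 5 was called and Syn3 was, at 0.27 (0.22 to 0.31). The ratio of Syt9 was then 0.11 (0.01 to 0.22), that of Syt15 0.14 (-0.60 to 0.89) and that of Syt6 0.22 (-0.15 to 0.58). Those of Cplx2 and Syt12 were no smaller than 0.25 but had intervals that reached 0, at 0.29 (-0.04 to 0.63) and 0.35 (-0.05 to 0.75). With CPM averaged over clusters, Syt15 and Syt12 were called, at 0.31 (0.04 to 0.58) and 0.30 (0.05 to 0.54), and Syt6, Cplx2 and Syt9 were not, at 0.15 (0.09 to 0.21), 0.20 (0.03 to 0.37) and 0.05 (0.02 to 0.08). With nuclei thinned to 2000 UMIs, Cplx2, Syt6 and Syt12 were not called, at 0.13 (-0.07 to 0.32), 0.21 (0.11 to 0.31) and 0.33 (-0.00 to 0.67). Syt9 and Syt12 were just under the limit with TMM factors, at 0.24 and 0.24. Syt9 was also not called at a resolution of 1.0 (0.21) or when the clusters with under 50 nuclei or with a marker of another cell class were included (0.19, an alternative chosen after seeing the data), nor Syt12 with called doublets left out (0.23) or without integration (0.24). Over clusters of both classes, Cplx2 was higher in 11 of 12, with an interval above 0 in 1, Sycp2l/Ccdc192, at 0.35 (0.18 to 0.52). Syt12 had an interval above 0 in 1 of 10 clusters, Nox4/Slco1a5, at 1.03 (0.34 to 1.75).

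In GABAergic neurons the members called higher were Vamp9 at 0.53 (0.16 to 0.92), Syt5 at 0.48 (0.26 to 0.70), Unc13b at 0.44 (0.32 to 0.56), Stx17 at 0.42 (0.26 to 0.58), Stx19 at 0.33 (0.04 to 0.62), Syt10 at 0.31 (0.07 to 0.56) and Stx2 at 0.25 (0.06 to 0.45). Unc13b stood at 55.6 CPM (51.8 to 59.6) in sham and 75.4 CPM (71.9 to 79) in injury, and Stx17, a syntaxin of autophagosomes, at 31.8 CPM (28.9 to 34.8) and 42.4 CPM (39.8 to 45.2). In the Gata3/Cdh23 cluster their log2 ratios were 0.53 (0.39 to 0.67) and 0.51 (0.33 to 0.70), against 0.12 (-0.15 to 0.39) and 0.09 (-0.26 to 0.45) in the reticular-like cluster, and the difference between these clusters was not tested. Syt5 was higher in injury in the Gata3/Cdh23 cluster, at 0.66 (0.42 to 0.90), and lower in the reticular-like cluster, at -0.62 (-1.23 to -0.01). With log2 ratios averaged over the 2 clusters its class ratio was 0.02 (-0.30 to 0.33), with CPM averaged 0.28 (0.04 to 0.53), and at a clustering resolution of 1.0 0.18 (-0.10 to 0.47), and it was called with averaged CPM alone of these. Syt10 had 0.44 (0.19 to 0.69) in the Gata3/Cdh23 cluster and only 18 sham and 7 injury UMIs in the reticular-like cluster, too few for a ratio. Its average of log2 ratios, which gives that cluster the same weight, was -0.82 (-1.44 to -0.19), its ratio of averaged CPM 0.17 (-0.09 to 0.42) and its ratio at a resolution of 1.0 -0.10 (-0.47 to 0.28), so that its direction depended on the setting. Stx19 was not called in these 3 settings, nor with thinned nuclei. Stx2 was not called under 5 of the 10 alternatives, among them called doublets left out, at 0.20 (-0.00 to 0.41), and a resolution of 1.0, at 0.07 (-0.18 to 0.33). Syt2 had the opposite pattern to Syt5, with -0.46 (-0.65 to -0.27) and 0.59 (0.37 to 0.81), and a class ratio of 0.04. Vamp9 had only 84 sham and 199 injury UMIs and was not called with thinned nuclei, at 0.22 (-0.46 to 0.93).

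Besides Syt4 and Vamp2, the members called lower in GABAergic neurons included Stxbp6 at -0.51 (-0.62 to -0.39), Vamp3 at -0.33 (-0.64 to -0.02) and Stxbp2 at -0.32 (-0.64 to -0.01). Vamp3 and Stxbp2 were not called with called doublets left out, at -0.30 (-0.62 to 0.04) and -0.24 (-0.57 to 0.10), nor Vamp3 with thinned nuclei and Stxbp2 at a resolution of 1.0. Stxbp6 stood at 81.7 CPM (77.1 to 86.5) in sham and 57.4 CPM (54.4 to 60.6) in injury and was lower in both GABAergic clusters, at -0.45 and -0.73. Over all neurons it was lower in 15 of 19 clusters, with an interval below 0 in 11, but it was higher in the thalamic relay-like cluster at 0.68 (0.40 to 0.97) and in the Fgf10/Adamts19 cluster at 1.64 (0.69 to 2.73). Vamp3, also called cellubrevin, lies within Camta1 on the same strand, and reads of these 2 genes cannot be fully told apart.

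**Figure D5:**
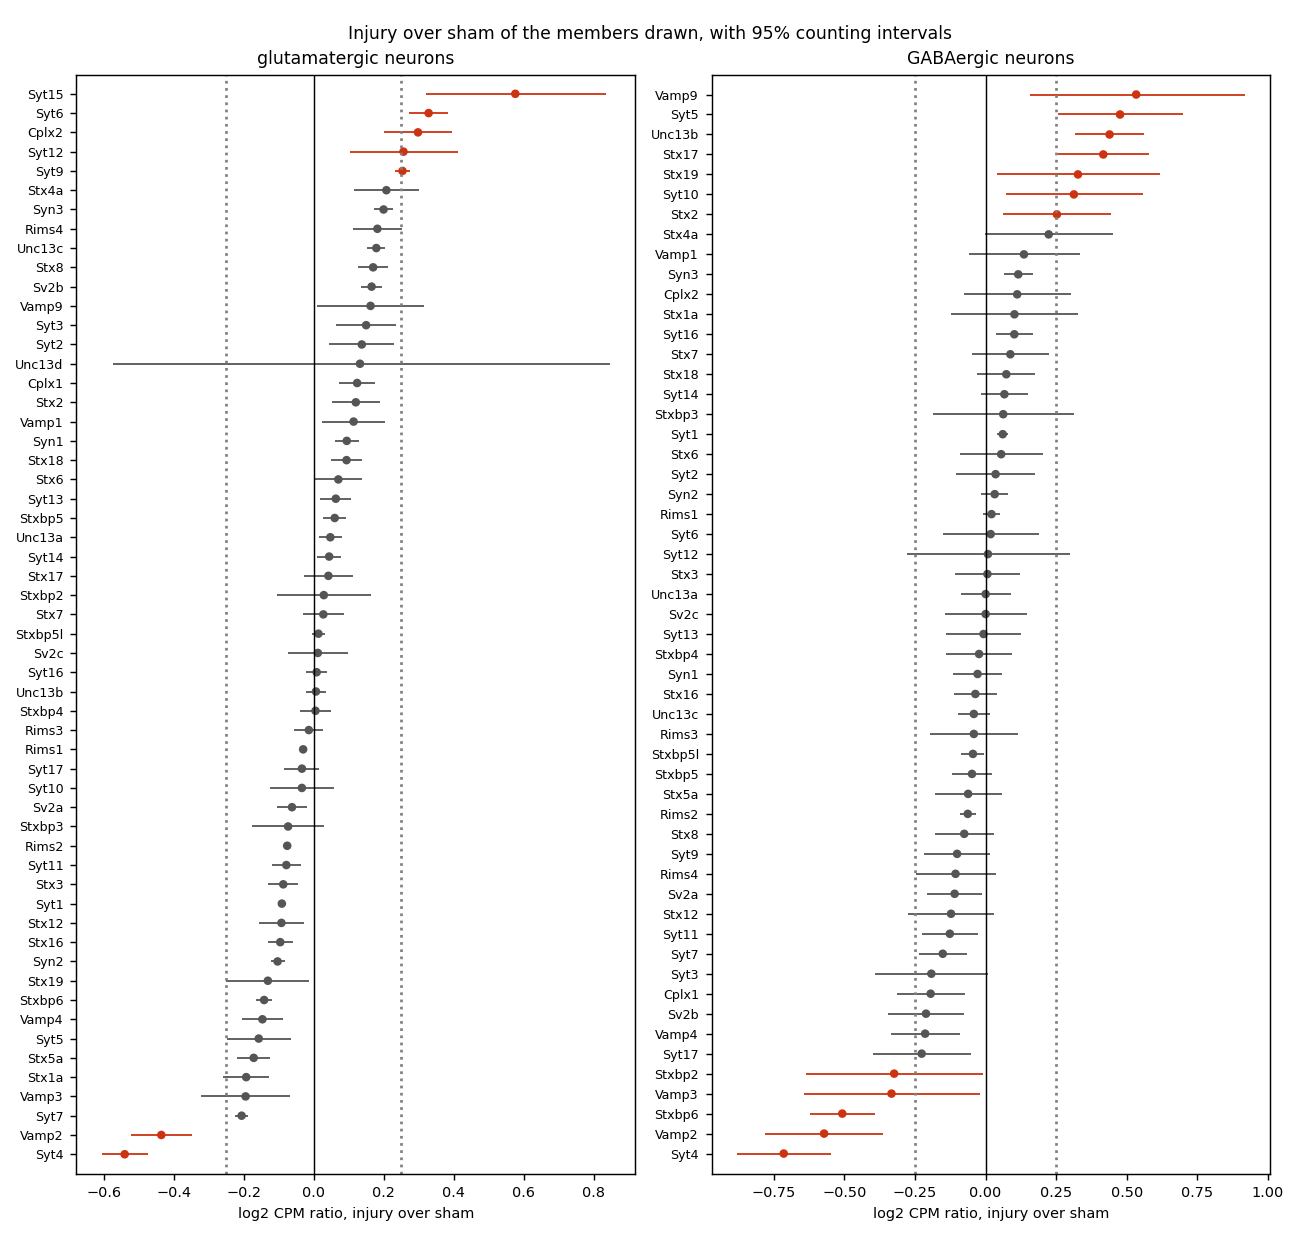
Log2 ratio of CPM in injury over sham for the tested members, sorted, in glutamatergic neurons (left, 56 members drawn) and GABAergic neurons (right, 54 members drawn), with 95% counting intervals as bars and red for called members. Dotted lines mark 0.25 in either direction, and Syt4 and Vamp2 are lowest in both classes.

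Several members moved by less than the limit but in 1 direction in nearly all clusters, and those named here were chosen after their values were seen. The share of all genes that did so is not given here, so these counts cannot be read as particular to the members. All clusters come from the same 2 libraries. Syn3 was higher in injury in 19 of 20 clusters, with an interval above 0 in 16 and below 0 in 0, and its class ratios were 0.20 (0.17 to 0.23) and 0.12 (0.07 to 0.17). Rims2, an active zone scaffold, was lower in 18 of 20, with an interval below 0 in 14, and its class ratios were -0.08 and -0.06. Syt7 was lower in 18 of 20, below 0 in 13, with class ratios of -0.21 (-0.23 to -0.19) and -0.15 (-0.24 to -0.07), of which the second became 0.16 (0.08 to 0.24) once the clusters with under 50 nuclei in a library or with a marker of another cell class were included. With nuclei thinned to 2000 UMIs, Syt7 was called lower in glutamatergic neurons, at -0.28 (-0.32 to -0.24). With log2 ratios averaged over clusters its ratio there was -0.11 (-0.16 to -0.06). Rims2 spans 486 kb and Syn3 444 kb, so that these long genes went in opposite directions. Stx8, an endosomal syntaxin, was higher in 18 of 20 and Stx5a, a Golgi syntaxin, lower in 18 of 20, with intervals apart from 0 in that direction in 6 and 6. The small Ebf2/Corin cluster, with 73 sham and 174 injury nuclei, gave the highest or lowest ratio of many members, and Syt7 was higher there at 1.06 (0.41 to 1.77). Counted as glutamatergic, this cluster had Gad1 at 51.1 CPM beside Slc17a6 at 154 CPM over both libraries.

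The thalamic relay-like cluster, a type of neuron that projects to cortex, had 12 members called higher and 6 lower of the 53 tested, against 9.44% and 12.1% of all genes tested in it. The 12 were Syt2, Stx6, Rims4, Syt3, Sv2b, Syt17, Stx4a, Syn3, Stx8, Stxbp6, Sv2c and Stxbp5l. Some of them are low in this cluster, such as Sv2c, at 1.22 and 5.08 CPM in sham and injury (13 and 65 UMIs) with a log2 ratio of 2.06 (1.18 to 3.04). Syt2 is low there too, at 3.86 and 7.51 CPM with 0.96 (0.42 to 1.53). Others are not, such as Sv2b, at 153 and 194 CPM with 0.35 (0.26 to 0.44), and Syn3, at 64.1 and 83.5 CPM with 0.38 (0.24 to 0.52). The 6 called lower were Vamp4, Stx1a, Vamp2, Stx19, Syt4 and Syt7, and Syt7 stood at 704 and 576 CPM, with -0.29 (-0.34 to -0.24). The reticular-like cluster had 4 members called higher and 7 lower of 55 tested, against 5.1% and 7.16% of its genes. The C6/Tspear cluster had 2 called higher and 4 lower of 54, against 6.56% and 12.1% of its genes. The Ppp1r3a/Tspan11 cluster had 2 and 2 of 53, against 7.58% and 11.6%. The count of 12 was thus not shared by these clusters, and it was the highest of all clusters compared. The small Ebf2/Corin cluster had 6 called higher and 8 lower of 27, against 13.2% and 13.1% of its genes.

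Of a list of other release genes, 49 were measured. In glutamatergic neurons 48 were tested, with 6 called higher (12.5%, against 8.92% of all genes), 4 lower (8.33%, against 9.23%) and a median of 0.02. In GABAergic neurons 46 were tested, with 4 called higher (8.7%, against 9.95%), 4 lower (8.7%, against 7.9%) and a median of -0.05. Syngr3, a vesicle membrane protein, was called lower in both classes, at 36 and 26.9 CPM in glutamatergic neurons with a log2 ratio of -0.42 (-0.49 to -0.35) and at 39.7 and 29.5 CPM in GABAergic neurons with -0.43 (-0.59 to -0.26). Rab3a, the vesicle GTPase, was also lower in both, at -0.28 (-0.38 to -0.18) and -0.25 (-0.48 to -0.03), and Rab3b was higher in both, at 0.37 (0.25 to 0.49) and 0.46 (0.24 to 0.70). Snap25, the partner of syntaxin and VAMP in the SNARE complex, stood at 915 and 753 CPM in glutamatergic neurons with -0.28 (-0.29 to -0.27), and its ratio in GABAergic neurons was -0.19 (-0.23 to -0.16). In the other direction, Synpr stood at 51.2 and 72.1 CPM in glutamatergic neurons with 0.49 (0.44 to 0.54). Cadps2 stood at 154 and 188 CPM there with 0.29 (0.26 to 0.32). Neither was called in GABAergic neurons, at 0.16 and 0.09. The genes named from this list were chosen after their values were seen.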

How the data were processed

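Single-nucleus 3′ libraries of mouse thalamus were compared, 1 sham and 1 injury, each pooled from 4 mice. The deposited files hold raw UMI counts per gene and barcode, which the authors made with Cell Ranger 6.0.2 on GRCm38 (mm10). Whether introns or strand were used in counting is not given in the sources used here. The members and gene lists were chosen with earlier results of these data known.

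After the study's methods, nuclei with over 2% mitochondrial counts, over 7500 or under 200 genes were removed, counts were normalized to a scale of 10000, the libraries were integrated and clustered in Seurat 5.3.0 (R 4.3.3). The resolution of 0.5 was chosen here. Doublets were called by score (scanpy 1.11.5), with the cut set for an expected 0.8% per 1000 nuclei, which is 13.1% in sham and 17.4% in injury. Their numbers, 2179 and 3871, thus followed from library size. They were kept, except in clusters where they passed 50%. Among the nuclei compared, 151 of 1999 sham and 446 of 3301 injury GABAergic nuclei were called doublets. In the glutamatergic class these were 1099 of 11671 and 1411 of 12148. UMIs were summed per library and class or cluster. Levels are CPM with exact Poisson intervals, and ratios and shares have exact Clopper-Pearson intervals (scipy 1.17.1). With 1 library per group no p-value was computed. A TMM factor came from edgeR 4.0.16. The call step was tested on simulated class sums that varied by counting error only.

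The genes named were the members of 9 paralog groups, those called between classes, the 4 highest and 4 lowest injury ratios in each class, the 10 widest over clusters and the 5 highest in glia. Alternatives were TMM scaling, UMI minimums of 20 and 200, called doublets left out, log2 CPM averaged over clusters (equal weights), a resolution of 1.0, no integration and nuclei thinned to 2000 UMIs. Including the kept-out clusters and averaging CPM over clusters were alternatives chosen after seeing the data. Counts cover all members, but results of 2 members are not reported here, and the plots leave them out.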

Additional observations from a re-analysis of the deposited data

Results flagged for a closer look

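For 5 members the injury over sham ratio lay on opposite sides of 0 in the 2 neuron classes, with neither interval reaching 0. The difference between the classes itself was not tested. Syt5 had a log2 ratio of -0.16 in glutamatergic and 0.48 in GABAergic neurons, but the latter was 0.02 (-0.30 to 0.33) with log2 ratios averaged over clusters, 0.28 (0.04 to 0.53) with CPM averaged, 0.18 (-0.10 to 0.47) at a resolution of 1.0 and -0.62 within the reticular-like cluster. Stx19 had -0.13 and 0.33, and Syt1 -0.09 and 0.06. In the opposite sense, Cplx1 had 0.12 in glutamatergic and -0.19 in GABAergic neurons and Sv2b 0.16 and -0.21. The intervals of both classes stayed apart from 0 on opposite sides for Syt1 alone with averaged log2 ratios, and for Syt1, Syt5 and Sv2b with averaged CPM. At a resolution of 1.0 the glutamatergic intervals of Syt5 and Stx19 reached 0, at -0.07 (-0.16 to 0.02) and -0.07 (-0.19 to 0.04). That of Stx19 also did so with nuclei thinned to 2000 UMIs, at -0.07 (-0.32 to 0.17).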

How the results depend on the processing

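The 5 members called higher in glutamatergic neurons became 3 with TMM factors, 1 with log2 ratios averaged over clusters (equal weights), 2 with CPM averaged over clusters and 3 with nuclei thinned to 2000 UMIs, and the 2 called lower became 4 with equal weights. The 7 called higher in GABAergic neurons became 4 with equal weights, and the 6 called lower became 10 with the kept-out clusters included. Averaging CPM and including those clusters were alternatives chosen after seeing the data. The 2 members called GABAergic became 1 with TMM factors, 1 at a resolution of 1.0, 1 with thinned nuclei, 1 with averaged CPM and 6 with equal weights. The cause was not tested. The other 48 counts stayed within 1.5 times, the 20 list medians moved by less than the members' counting error, and of the ratios of named members 399 stayed within their counting interval, 128 left it and 3 were reversed. These were Syt10 in GABAergic neurons, at -0.82 with equal weights, where the reticular-like cluster had 18 sham and 7 injury UMIs, and -0.10 at a resolution of 1.0, and Syt7 in GABAergic neurons, at 0.16 with the kept-out clusters included. Syt4 and Vamp2 in both classes and Stxbp6, Unc13b and Stx17 in GABAergic neurons kept their injury calls under all 10 alternatives, and each other named member called in a class lost its call under at least 1. No paired analysis was possible because 1 library stood for each group, and no replicate could be left out. Depth limits members such as Syt15 and Vamp9, whose intervals are wide.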
